A study of Mus musculus with 32 samples.

Results

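The transcripts of 10 enzymes of mitochondrial fatty acid oxidation were followed across 32 microarrays of mouse preadipocyte samples, in culture and from mice, with Pparg or glycerol kinase knocked down or Pparg labelled knocked out. The 10 genes, of 20665 named on the array, were taken by symbol through all 13 of their probes: Cpt1a, Cpt1b, Cpt2, Acadvl, Acadl, Acadm, Acads, Hadha, Hadh and Acaa2. Cpt1a, Cpt1b and Cpt2 have 2 probes each, and the brighter one is used unless the second is named.

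Fatty acids enter the mitochondrion as carnitine esters. Carnitine palmitoyltransferase 1 on the outer membrane makes the ester (Cpt1a encodes the liver form, Cpt1b the muscle form that is also abundant in brown fat) and is inhibited by malonyl-CoA, and carnitine palmitoyltransferase 2 (Cpt2) on the inner membrane turns it back into acyl-CoA. Each turn of the spiral then begins with an acyl-CoA dehydrogenase suited to the chain length, very long (Acadvl), long (Acadl), medium (Acadm) or short (Acads). It goes on with the trifunctional protein for long chains, whose alpha subunit is Hadha, or with separate enzymes for shorter chains, among them the hydroxyacyl-CoA dehydrogenase Hadh, and ends with a thiolase such as Acaa2, which releases acetyl-CoA. In brown adipocytes this pathway supplies fuel for heat production by Ucp1, and PPAR nuclear receptors are known to bind near many of its genes.

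Every sample carries the strain label C57Bl/6 and the cell type label preadipocytes. In culture there were Pparg control and Pparg KnockDown samples, and Gyk control and Gyk KnockDown samples, all labelled RoomTemperature. From mice there were Pparg control and Pparg KnockOut samples at RoomTemperature, and the same pair of genotypes after ColdExposure. Each of the 8 groups had 4 arrays. The labels do not state the means of knockdown, the promoter of any Cre, the ages of the mice, the length of cold exposure, or whether the 4 samples of a group were separate cultures or animals. The p-values below therefore reflect only how far these 4 arrays scatter, and that scatter could be purely technical.

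Values are log2 signal relative to the 75th percentile of each array, which ran from 140.7 to 808.2 intensity units and was lowest on Gyk KnockDown arrays 3 and 4. All 10 genes were well above background on every array where their spots were measured. Pparg was 6.16 ± 0.187 (SD, n = 4) in culture controls and 4.24 ± 0.158 in the knockdown, whereas in mice its 1 probe read higher on the arrays labelled knockout, by 2.07 at room temperature and 2.13 in the cold. Where the deletion lies relative to that probe is not given in the sources used here, so the mouse groups are called arrays labelled knockout, and each direction in mice rests on those labels. Gk, the gene the study calls Gyk, was 2.40 lower in its own knockdown. Against the label preadipocytes, 5 or 6 of 6 mature adipocyte markers were well above background on all arrays of every group, beside 6 or 7 of 7 preadipocyte and fibroblast markers (Lum was above it on no culture array). In the mice, the skeletal muscle genes Ckm, Myh4, Actn3 and Tnnt3 were high on cold control arrays 1 and 2, on cold array 4 labelled knockout and on room temperature array 1 labelled knockout.

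Promoters are shown for the genes in which a nuclear receptor half-site was found. RefSeq (GRCm38.p6) windows of 300 bases around the start site were used for 8 of the 10 genes. Windows on 1 chromosome were left out for the 10 genes but kept among the promoters used for comparison. Each window was searched on both strands for the hexamer AGGTCA, which 3 of the 8 windows and 16.3% of 32851 promoters of the same length held. The 3 windows are printed on the gene's strand with the hexamer in capitals, read TGACCT where it lies on the opposite strand. Cpt1a lies at chr19:3323051-3323350 on the plus strand, Acadvl at chr11:70015379-70015678 on the minus strand and Acadm at chr3:153944594-153944893 on the minus strand.
Cpt1a: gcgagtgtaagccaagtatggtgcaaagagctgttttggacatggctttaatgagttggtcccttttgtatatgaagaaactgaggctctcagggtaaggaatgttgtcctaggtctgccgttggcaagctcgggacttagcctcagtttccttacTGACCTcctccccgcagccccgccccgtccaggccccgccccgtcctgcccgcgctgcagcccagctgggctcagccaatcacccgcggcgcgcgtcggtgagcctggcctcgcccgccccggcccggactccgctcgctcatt
Acadvl: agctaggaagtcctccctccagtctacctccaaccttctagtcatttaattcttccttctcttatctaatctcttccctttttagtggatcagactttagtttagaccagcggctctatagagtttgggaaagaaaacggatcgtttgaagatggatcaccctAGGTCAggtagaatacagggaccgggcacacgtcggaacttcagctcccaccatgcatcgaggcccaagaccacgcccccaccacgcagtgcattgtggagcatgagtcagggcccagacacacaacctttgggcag
Acadm: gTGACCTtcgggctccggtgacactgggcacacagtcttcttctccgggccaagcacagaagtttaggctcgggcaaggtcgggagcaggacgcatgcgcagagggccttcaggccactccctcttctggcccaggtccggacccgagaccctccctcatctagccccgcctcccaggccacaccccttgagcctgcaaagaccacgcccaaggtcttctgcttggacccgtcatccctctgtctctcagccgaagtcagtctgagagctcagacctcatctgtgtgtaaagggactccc
The hexamer began 94 bases upstream of the start site in Cpt1a, 87 in Acadvl and 249 in Acadm. Cpt1a was higher on the mouse arrays labelled knockout while Acadvl and Acadm were lower, so the genes that share the hexamer did not share a direction. None of the 8 windows held a direct repeat of AGGTCA with any 1 base between the copies, found in 0.0396% of promoters, or the looser repeat of AGGNCA built the same way, found in 0.381%. GGNCAA followed directly by AGGTCA (0.0639% of promoters), AGGGNN followed directly by AGGNCA (0.63%) and TCAAGGTCA (0.423%) were in none of them either. Several of these motifs contain AGGTCA, and a match or its lack describes only the letters of this window.

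Across the 8 groups the genes differed in where they stood highest. Acadvl, Acadm, Acads, Hadha and Acaa2 were highest in the cold controls, Cpt1b, Cpt2, Acadl and Hadh in the room temperature controls, and Cpt1a on the room temperature arrays labelled knockout. For Cpt2 this holds for the brighter probe only, since the second gave the opposite direction between temperatures. The lowest group was the Pparg knockdown for 7 of the 10 genes. The distance from the highest to the lowest group mean ran from 1.79 for Cpt1a to 6.49 for the brighter Cpt2 probe. For Cpt1a only 1 of the 7 steps between groups neighbouring by mean left a gap between their arrays. The room temperature (1.78 ± 0.116) and cold (1.47 ± 0.625) arrays labelled knockout overlapped each other and had the highest means, followed by the Gyk control at 0.84 ± 0.0349 (SD, n = 4 each). Their lowest array, at 0.95, lay above every array of the Gyk control but below the highest Gyk KnockDown array, at 1.18. For Cpt1b 5 of 7 steps were apart, from 5.59 ± 0.114 in room temperature controls to 1.49 in the Pparg knockdown. Culture and mouse groups differ in slide and scan day, so these orders are descriptions.

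**Figure D1:**
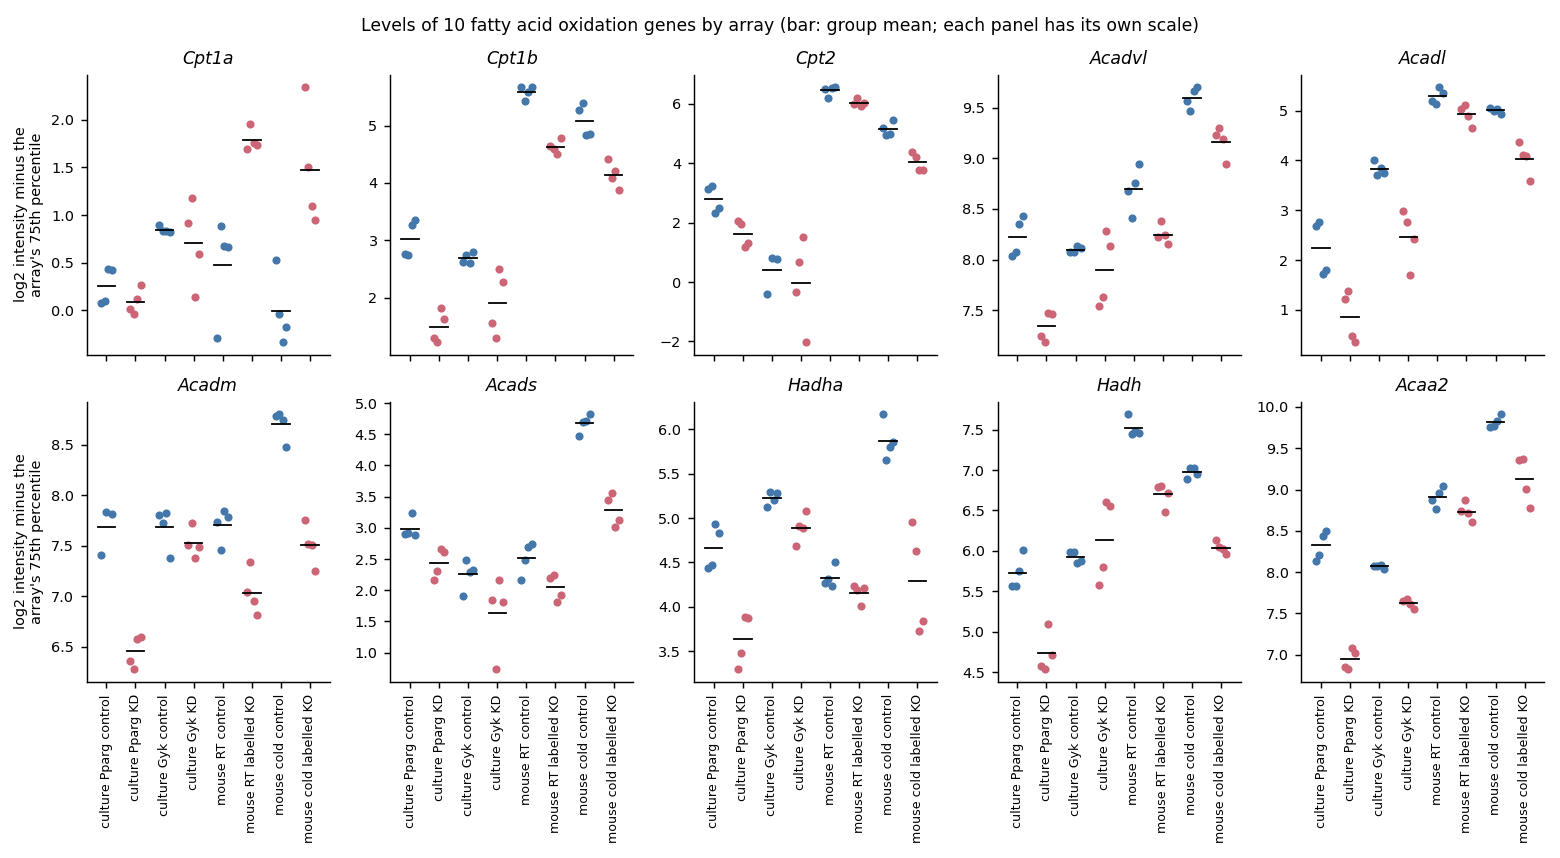
Scaled log2 signal (vertical axis, own scale for each gene) of the 10 genes on each array, by group (horizontal axis), with blue points for control arrays, red points for knockdown arrays (KD) or arrays labelled knockout (KO), and bars for group means. Most genes are lowest in the Pparg knockdown, and Cpt1a is highest on the mouse arrays labelled knockout.

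Pparg knockdown in culture lowered 9 of the 10 enzymes, by 1.46-fold (Acads) to 2.9-fold (Cpt1b), and Cpt1a alone did not pass the threshold. Among all 12844 genes tested, 34.8% were called in either direction, 16.9% were called lower and 17.8% higher. The median difference was −1.11 over the 10 genes and 0.01 over all genes. The arrays of the same 9 genes did not overlap between the groups, and the share of all genes without overlap was not counted. With the slide as a block all 10 genes were called lower, beside 59.5% of all genes called in either direction.

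At the mitochondrial entry, the muscle form of carnitine palmitoyltransferase 1 changed most. Cpt1b read 2.76, 2.74, 3.27 and 3.35 on control arrays 1 to 4 and 1.29, 1.23, 1.82 and 1.62 on knockdown arrays 1 to 4. Every knockdown array lay below every control array, a difference of −1.54 ± 0.19 (SE; limma, Benjamini-Hochberg adjusted p = 0.000352). Its second probe gave −1.69. The liver form, Cpt1a, read 0.08, 0.10, 0.43 and 0.42 in controls and 0.01, −0.04, 0.12 and 0.27 in the knockdown. These overlapped, and the difference was −0.17 ± 0.12 (limma, adjusted p = 0.318). It passed in limma with the slide as a block (adjusted p = 0.0239) and with the replicate number as a block (adjusted p = 0.0436). Cpt2, the inner membrane partner, was 2.27-fold lower (−1.18 ± 0.27; limma, adjusted p = 0.01).

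Among the acyl-CoA dehydrogenases the change was uneven. Acadl was lower by −1.38 ± 0.32 (limma, adjusted p = 0.0106), Acadm by −1.23 ± 0.14 (adjusted p = 0.0004) and Acadvl by −0.88 ± 0.12 (adjusted p = 0.000574). Acads changed least, reading 2.90, 2.92, 3.24 and 2.88 in controls against 2.16, 2.31, 2.66 and 2.61. Its groups did not overlap (−0.55 ± 0.14; limma, adjusted p = 0.0144), but the call was lost with another background correction (normexp, −0.43, adjusted p = 0.0591).

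The later steps of the spiral changed together. Acaa2, the thiolase, read 8.14, 8.21, 8.44 and 8.50 in controls and 6.85, 6.83, 7.08 and 7.02 in the knockdown. Its arrays were apart, and its adjusted p was the lowest of the 10 genes, with −1.38 ± 0.11 (limma, adjusted p = 2.87e-05). Hadha was 2.04-fold lower (−1.03 ± 0.17; limma, adjusted p = 0.00192) and Hadh 1.99-fold lower (−0.99 ± 0.15; limma, adjusted p = 0.00115). Slides shifted some levels: Cpt2 and Acadl stood 0.77 and 0.96 higher in the controls of the first slide than in those of the second, whereas the other genes stood 0.15 to 0.56 lower, and the knockdown change within each slide had the same direction for all 10 genes. It differed most in proportion for Cpt1a (−0.10 and −0.23) and Acads (−0.68 and −0.42).

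The neighbours of the 10 genes in the pathway were mostly lower too. Carnitine shuttle and activation genes were called lower for 6 and higher for 1 of 8 tested, with the acyl-CoA synthetase Acsl1 at −1.76, the carnitine-acylcarnitine carrier Slc25a20 at −1.44 and the brain form Cpt1c at 1.29. Acot2, also called lower, was above background on 1 of 4 knockdown arrays, so its size is not given. Spiral partners were lower for 9 of 13, among them the hydratase Echs1 (−1.34) and the trifunctional beta subunit Hadhb (−1.01). All 3 electron transfer genes were lower (Etfb −1.11, above background on 3 control arrays; Etfdh −1.10; Etfa −0.64), as were all 3 genes that make or remove malonyl-CoA (Acaca −0.85, Mlycd −0.78, Acacb −0.47). Of the regulators, a list that holds Pparg itself, 5 of 9 were lower, the knocked-down Pparg among them, with Ppara at −1.49. Of the ketone and pyruvate genes 2 of 4 were lower, with Pdk4 at −1.45, and 4 of 7 peroxisomal oxidation genes, with Ehhadh at −1.23. Mature adipocyte markers were lower for 6 of 6, their summed level falling from 9.48 to 9.75 in controls to 8.04 to 8.46, and preadipocyte and fibroblast markers were higher for 3 of 6 (summed level 2.08 to 2.29 against 2.85 to 2.93). In bulk RNA, fewer adipocytes and less of an enzyme's RNA per adipocyte cannot be told apart.

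**Figure D2:**
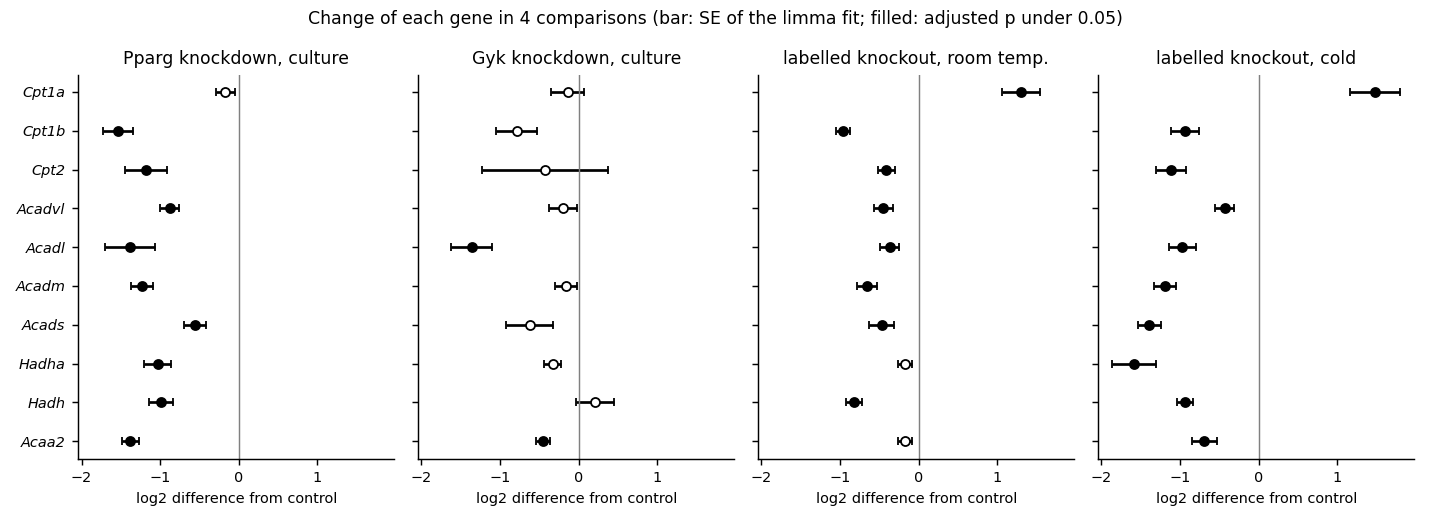
Log2 difference from control (horizontal axis, bars are standard errors of the limma fit) of each of the 10 genes (vertical axis) in the 4 knockdown and knockout comparisons. Filled points passed the adjusted p threshold of 0.05, and in both mouse comparisons Cpt1a is the one gene to the right of 0.

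Gyk knockdown lowered 2 of the 10 enzymes, Acadl and Acaa2, against 8.64% of 12220 genes called in either direction, 4.14% lower and 4.5% higher. Acadl read 4.01, 3.71, 3.85 and 3.74 on Gyk control arrays and 2.98, 2.77, 1.71 and 2.42 in the knockdown, with no overlap (−1.36 ± 0.26; limma, adjusted p = 0.0205). Acaa2 read 8.08, 8.08, 8.09 and 8.04 against 7.65, 7.68, 7.62 and 7.55 (−0.45 ± 0.09; limma, adjusted p = 0.0247). Both sets of arrays were apart, but Acaa2 lost its call with normexp (adjusted p = 0.111) and quantile normalization (0.0535), and neither gene passed with the replicate number as a block (Acadl 0.0644, Acaa2 0.119). Leaving out any 1 of the 4 Gyk control arrays also ended both calls (limma, adjusted p = 0.0576 to 0.0905). Within slides the Acadl difference was −0.99 and −1.73, and that of Acaa2 −0.42 and −0.48.

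Knockdown arrays 3 and 4, the dimmest of the series, differed from arrays 1 and 2 for several genes. Cpt1b read 1.55, 1.30, 2.50 and 2.28 on knockdown arrays against 2.63, 2.75, 2.60 and 2.79 in controls. The first pair lay well below the controls and the second close to them (−0.79 ± 0.26; limma, adjusted p = 0.103). Hadh read 5.58, 5.80, 6.61 and 6.55 against 5.99, 5.98, 5.85 and 5.88, so its knockdown arrays lay on both sides of the controls (0.21 ± 0.24; limma, adjusted p = 0.599). Cpt2 ran from −2.01 to 1.53 in the knockdown by its brighter probe, whose difference was not called (−0.43 ± 0.80; limma, adjusted p = 0.758). Its second probe was not called either, at −1.09 ± 0.39 (limma, adjusted p = 0.129). Without arrays 3 and 4, 4 of the 10 genes were called, against 10.9% of all genes.

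Few pathway neighbours were called, all of them lower, beside 4.14% of all genes called lower and 8.64% in either direction. Of the shuttle and activation genes 2 of 8 were lower (Slc25a20 −0.94, Acsl1 −0.64). So was 1 of 13 spiral partners (Ech1 −0.74) and 1 of 3 electron transfer genes (Etfdh −0.81). Of 4 pyruvate and ketone genes 1 was lower (Pdk4, which restrains pyruvate oxidation, −0.86). The same held for 1 of 9 regulators (Ppara −0.86) and 1 of 7 peroxisomal genes (Ehhadh −0.65). Of the malonyl-CoA genes Acaca was at −0.08, Acacb at 0.04 and Mlycd at −0.79, within their errors. With normexp the 1 call left in these lists was in the pyruvate and ketone list, and with the replicate block no call was left. Ech1 was above background on 3 Gyk control arrays and Ppara on 3 knockdown arrays. All 6 mature adipocyte markers had a difference below 0 (median −0.30), of which Lep was called lower (−0.83), and brown adipocyte markers, lower for 5 of 7, had a summed level of 8.78 to 9.20 in Gyk controls and 7.93 to 8.48 in the knockdown. The knockdowns were compared directly over their 16 arrays. The Pparg effect exceeded the Gyk effect for 4 of the 10 genes, against 6.52% of 13119 genes called lower and 6.25% higher in this difference: Acadm (−1.07 ± 0.20; limma, adjusted p = 0.00256), Hadha (−0.70 ± 0.21; 0.046), Hadh (−1.20 ± 0.30; 0.0145) and Acaa2 (−0.93 ± 0.14; 0.000338). Hadha lost this call with normexp (adjusted p = 0.121), with the array median (0.0993) and without any 1 of 11 of the 16 arrays (0.0587 to 0.0965). Acadl had nearly the same estimate in both, with a difference of −0.02 between them.

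In mice at room temperature, 7 of the 10 enzymes were lower and Cpt1a was 2.47-fold higher on the arrays labelled knockout. Of 13233 genes tested 44.6% were called, 25.1% lower and 19.5% higher, so most of these calls stand in a comparison where many genes differ. The median difference was −0.43 over the 10 genes and −0.05 over all genes. Arrays did not overlap for 7 of the 10, and the share of all genes without overlap was not counted.

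Cpt1a read −0.29, 0.88, 0.67 and 0.66 in room temperature controls and 1.69, 1.95, 1.76 and 1.73 on the arrays labelled knockout. All 4 of these stood above every control, with 1.30 ± 0.24 (limma, adjusted p = 0.00266), and the second probe gave 1.05 (adjusted p = 0.0101). Cpt1b went the other way, reading 5.67, 5.43, 5.59 and 5.67 against 4.64, 4.60, 4.50 and 4.78, again with no overlap (−0.96 ± 0.09; limma, adjusted p = 0.000119). Hadh was the next clearest, at 7.69, 7.45, 7.48 and 7.46 against 6.79, 6.80, 6.48 and 6.72. Its groups were far apart (−0.82 ± 0.10; limma, adjusted p = 0.000406). Acadm was lower by −0.66 ± 0.13 (limma, adjusted p = 0.00447), with its lowest control at 7.46 and its highest array labelled knockout at 7.34, a narrow gap.

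The other calls at room temperature were small. Cpt2 (−0.41), Acadvl (−0.45), Acadl (−0.37) and Acads (−0.47) passed in limma with adjusted p between 0.0143 and 0.0411, and all 4 were lost when the array median replaced the 75th percentile. Quantile normalization also lost Acadvl, Acadl and Acads. Leaving out 1 array lost Acadl for 6 of the 8 arrays, all but control 2 and array 2 labelled knockout (adjusted p = 0.0504 to 0.0979), and Acads for 5, controls 2, 3 and 4 and arrays 3 and 4 labelled knockout (0.0608 to 0.0914). Hadha differed by −0.17 ± 0.09 (limma, adjusted p = 0.164) and Acaa2 by −0.17 ± 0.09 (adjusted p = 0.162), and the estimate for Acaa2 turned to 0.19 (adjusted p = 0.046) under quantile normalization. The array's 75th percentile was 293.2 to 407.6 in these controls and 498.6 to 604.8 on the arrays labelled knockout.

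In the cold, 9 of the 10 enzymes were lower on the arrays labelled knockout and Cpt1a was 2.79-fold higher, and no gene's arrays overlapped between the groups. The background was 31.9% of 12983 genes called, 18.2% lower and 13.7% higher, and the share of all genes without overlap was not counted. The median difference was −0.96 over the 10 genes and −0.05 over all genes. Hadha, the trifunctional alpha subunit, read 6.17, 5.65, 5.80 and 5.86 in cold controls and 4.95, 4.63, 3.73 and 3.84 on the arrays labelled knockout. The groups stood apart, a 2.99-fold difference (−1.58 ± 0.28; limma, adjusted p = 0.004). Acads read 4.48, 4.69, 4.72 and 4.82 against 3.44, 3.56, 3.01 and 3.12, also apart (−1.39 ± 0.15; limma, adjusted p = 0.000531).

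Cpt1a read 0.53, −0.04, −0.33 and −0.18 in cold controls and 2.34, 1.5, 1.09 and 0.95 on the arrays labelled knockout, spread widely but with no overlap (1.48 ± 0.32; limma, adjusted p = 0.0086). Its second probe gave 1.25 (adjusted p = 0.0253). Cpt1b read 5.27, 5.39, 4.84 and 4.85 against 4.42, 4.09, 4.21 and 3.87 (−0.94 ± 0.18; limma, adjusted p = 0.00549). Acadm was 2.28-fold lower (−1.19 ± 0.14; limma, adjusted p = 0.000769), Cpt2 2.16-fold (−1.11 ± 0.19; adjusted p = 0.0035), Acadl 1.96-fold (−0.97 ± 0.17; adjusted p = 0.00372) and Hadh 1.91-fold (−0.94 ± 0.10; adjusted p = 0.000523). Acaa2 (−0.69 ± 0.16; limma, adjusted p = 0.011) and Acadvl (−0.43 ± 0.12; adjusted p = 0.0275) changed least, and Acadvl missed the threshold with the replicate number as a block (adjusted p = 0.0516). Quantile normalization lost Acadvl (−0.08, adjusted p = 0.623) and Acaa2 (−0.36, 0.0542). Acadvl was also lost without cold control array 1, 3 or 4 or without array 3 or 4 labelled knockout (0.0539 to 0.0772).

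Muscle RNA moved with some of these arrays. The summed level of the skeletal muscle markers was 3.44 to 4.09 in room temperature controls and 6.31 to 7.18 on the arrays labelled knockout, and in the cold 4.15 to 7.88 and 6.86 to 7.60. On room temperature arrays 2 to 4 labelled knockout this sum came mostly from myoglobin (Mb), at 7.04, 6.59 and 6.19, while Ckm, Myh4, Actn3 and Tnnt3 were not well above background there. Mb was also high on cold arrays 1 to 3 labelled knockout (7.02, 7.54 and 6.77), where Ckm, Myh4 and Actn3 were not well above background. Cpt1b is itself expressed in muscle. Ckm, Myh4, Actn3 and Tnnt3 were also well above background on cold control array 4, at lower levels (Myh4 −1, Tnnt3 −1.05), and it was kept. The 4 arrays where these genes were highest were left out, which left 2 cold controls, array 4 among them. Of all genes 17.6% were then called in the cold and 39.2% at room temperature. Cpt1a was higher by 1.90 in the cold (limma, adjusted p = 0.0206) and by 1.34 at room temperature (adjusted p = 0.00725). In the cold Cpt1b was then at −0.61 (adjusted p = 0.0591), Acadvl at −0.44 (0.0913) and Acaa2 at −0.62 (0.0639), and these 3 calls were lost, while at room temperature Acadl was lost (−0.40, 0.0548). Mature adipocyte markers were lower for 5 of 6 in each mouse comparison (summed level 10.18 to 10.56 against 9.24 to 9.35 at room temperature, 10.28 to 10.40 against 9.05 to 9.46 in the cold). Macrophage markers were higher for 5 of 5 in the cold (summed level 3.71 to 3.95 against 4.31 to 5.07), while at room temperature their differences lay between −0.16 and 0.43. Preadipocyte and fibroblast markers were higher for 5 of 7 in the cold (6.46 to 6.94 against 7.07 to 7.52). Brown adipocyte markers were lower for 5 and higher for 1 of 7 at room temperature (11.44 to 11.91 against 10.25 to 10.54) and lower for 4 in the cold (11.19 to 11.30 against 9.52 to 10.56). Nerve and Schwann cell markers were higher for 2 of 3 tested at room temperature (4.60 to 4.98 against 5.09 to 5.33) and 2 of 4 in the cold (3.98 to 4.58 against 6.07 to 6.23). At room temperature endothelial markers were lower for 3 of 4 (3.65 to 4.20 against 3.12 to 3.48) and red blood cell markers for 3 of 3 (7.60 to 8.92 against 6.91 to 7.79). The part of these cell types in the enzyme differences was not tested beyond leaving out the arrays.

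The carnitine palmitoyltransferase 1 forms were compared within each array, where array scaling cancels. The log2 value of Cpt1b minus Cpt1a was 5.11 ± 0.604 (SD, n = 4) in room temperature controls and 2.85 ± 0.183 on the arrays labelled knockout. This was a shift of −2.27 (exact 2-sided permutation test, p = 0.0286, adjusted over 4 comparisons 0.0381). In the cold the shift was −2.42 (exact permutation p = 0.0286, adjusted 0.0381), and in the Pparg knockdown −1.37 (exact permutation p = 0.0286, adjusted 0.0381). A p of 0.0286 is the smallest that 4 against 4 arrays allow. These orders ignore the slide and number that arrays share. Flipping pairs of the same number instead, 4 pairs cannot reach the threshold (exact permutation, adjusted p = 0.167). Without the muscle arrays the shift was −2.30 at room temperature (exact permutation, adjusted p = 0.0571) and −2.51 in the cold (0.133). All arrays labelled knockout that were left lay below all controls left. Each unadjusted p was therefore the lowest that so few arrays allow, and the miss reflects their number. In the Gyk knockdown the shift was −0.65, with knockdown arrays spread at 1.20 ± 1.02 against 1.85 ± 0.115 (exact permutation p = 0.314). In the Pparg knockdown the genes differed by −1.54 (Cpt1b) and −0.17 (Cpt1a), whereas in mice they moved in opposite directions.

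**Figure D3:**
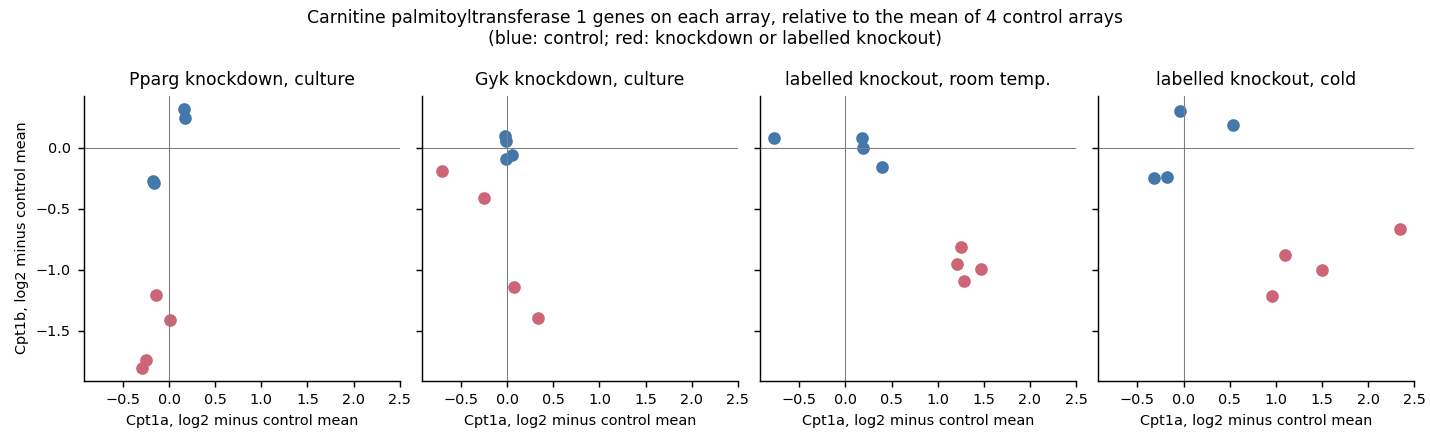
Cpt1a (horizontal axis) and Cpt1b (vertical axis) on each array, as log2 difference from the mean of the control arrays of the same experiment, with blue points for controls and red points for knockdown arrays or arrays labelled knockout. In the Pparg knockdown the red points lie below the controls, and in both mouse comparisons they lie below and to the right of them.

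Pathway neighbours on the mouse arrays labelled knockout were mostly lower at the shuttle. Of all genes 25.1% were called lower and 19.5% higher at room temperature, and 18.2% and 13.7% in the cold. At room temperature all 7 shuttle and activation genes tested were lower (Slc25a20 −1.35, Acsl5 −1.27, the thioesterase Acot2 −1.19), and in the cold 6 were lower and 1 higher of 8 (Acot2 −2.22, Acsl5 −2.11, Slc25a20 −1.77), or 4 and 0 without the muscle arrays. Spiral partners were lower for 4 and higher for 2 of 13 at room temperature, which became 4 and 4 under quantile normalization, and lower for 7 of 13 in the cold (Acad11 −1.69, Hadhb −1.0), or 2 without the muscle arrays. Electron transfer genes were lower for 3 of 3 at room temperature, or 1 under other scalings, and 2 of 3 in the cold. Among them Etfdh, which passes electrons on to ubiquinone, was at −0.41 and −1.07. Mlycd, which removes malonyl-CoA, was at −1.16 and −0.88. Regulators were lower for 5 and higher for 2 of 9 at room temperature and lower for 2 and higher for 1 in the cold. Pparg itself is in this list: it is 1 of the 2 higher at room temperature and the 1 higher in the cold. The receptor Ppara was lower at both temperatures (−2.51 and −2.17), and the coactivator Ppargc1a was lower at room temperature (−2.12). The peroxisomal enzyme Ehhadh was at −2.09 and −1.82, and its list was lower for 4 and higher for 3 of 7 at room temperature and lower for 5 of 7 in the cold (2 without the muscle arrays). Leaving out the muscle arrays also cut the calls over all genes in the cold, from 31.9% to 17.6%. A part of muscle RNA in the lower list counts was not tested.

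**Figure D4:**
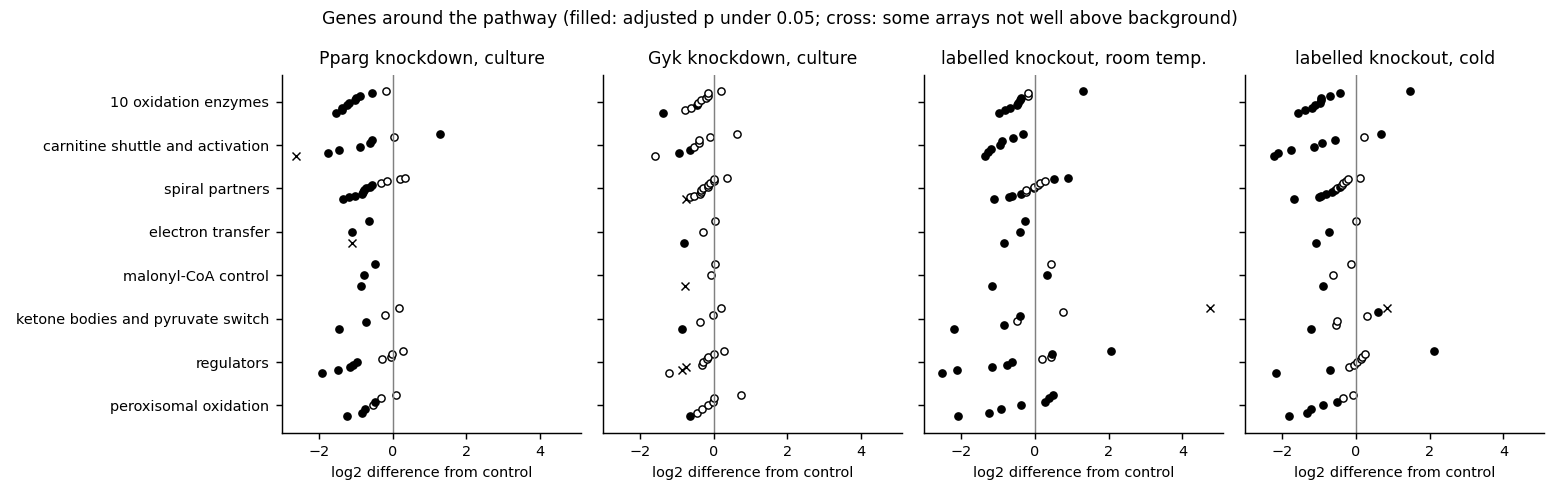
Log2 difference from control (horizontal axis) of each gene tested of the pathway lists (vertical axis) in the 4 comparisons. Filled points passed the adjusted p threshold of 0.05, open points did not, and crosses mark genes not well above background on some arrays, whatever their p. In each comparison more shuttle and activation genes were called lower than higher, and the Gyk knockdown has the fewest filled points.

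Cold exposure changed the enzymes unevenly in control mice. Of the 10 genes, 5 were higher and 3 lower in the cold, against 66.7% of 14066 genes called (41.6% higher, 25.1% lower); 8 of 10 is close to that background. Acads was 4.46-fold higher (2.16 ± 0.16; limma, adjusted p = 2.4e-08), from 2.17, 2.48, 2.70 and 2.74 to 4.48, 4.69, 4.72 and 4.82, with no overlap. Hadha was higher by 1.54, Acadm by 1.0, Acaa2 by 0.91 and Acadvl by 0.90. Hadh (−0.55) and Cpt1b (−0.50) were lower, but neither was called when the array median was subtracted, a scaling that moved the median of all genes from 0.23 to 0.58. The first Cpt2 probe gave −1.30 and the second 1.12, so no direction can be given for Cpt2. The second Cpt1b probe gave −0.19 (limma, adjusted p = 0.334). Cpt1a was at −0.48 (limma, adjusted p = 0.167) by its first probe and −1.02 (adjusted p = 0.0132) by its second. Brown adipocyte markers were called lower in the cold controls for 3 and higher for 0 of 7. Ucp1 read 10.17 in room temperature controls and 9.13 in cold controls. Mature adipocyte markers were higher for 3 and lower for 2 of 6. Skeletal muscle markers were higher for 6 of 8, macrophage markers higher for 3 and lower for 1 of 5, and endothelial markers lower for 2 and higher for 1 of 4. The part of these cell types was not tested. Temperature differed together with slide and scan day, and these cannot be told apart.

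On the arrays labelled knockout 8 of the 10 genes were called between temperatures, the first Cpt2 probe included. Cold went with higher Acads (1.24), Acadvl (0.92), Acadm (0.47) and Acaa2 (0.40) and lower Acadl (−0.89; −0.28 and not called in controls), Hadh (−0.66) and Cpt1b (−0.48), against 65.6% of genes called (41.1% higher, 24.5% lower). Hadha was at 0.13 ± 0.22 (limma, adjusted p = 0.62), its room temperature arrays at 4.23, 4.19, 4.01 and 4.21 and its cold arrays at 4.95, 4.63, 3.73 and 3.84. Cold arrays lay on both sides of the room temperature ones. The second Cpt2 probe differed by 0.02 where the first gave −2.0. Acadm and Acaa2 were not called here under normexp, nor Acaa2 under quantile normalization, nor Cpt1b with the array median.

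The genotype difference was larger in the cold for Hadha and Acads, 2 of the 10 genes, where 7.2% of genes were called in that direction and 6.13% in the other (13.3% in either). The difference between the genotype effects was −1.41 ± 0.31 for Hadha (limma, adjusted p = 0.0108) and −0.92 ± 0.22 for Acads (adjusted p = 0.0171). In control mice both were higher in the cold, while on the arrays labelled knockout Acads was higher by less and Hadha did not pass. The within-slide genotype differences in the cold were −1.12 and −2.05 for Hadha and −1.08 and −1.70 for Acads. Neither passed the test of the difference without the muscle arrays (Hadha −1.20, adjusted p = 0.0582; Acads −0.90, 0.0636), and Acads missed it with the replicate block (0.0559). Hadhb, encoded beside Hadha as the partner subunit, differed in the same direction (−0.99), as did the spiral partners Ech1 (−0.89), Acadsb (−0.79) and Eci2 (−0.70). Cpt2 was at −0.70 (limma, adjusted p = 0.0512) by its first probe and −1.10 (adjusted p = 0.0262) by its second. The estimate for Cpt1a was 0.17 (limma, adjusted p = 0.826).

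**Figure D5:**
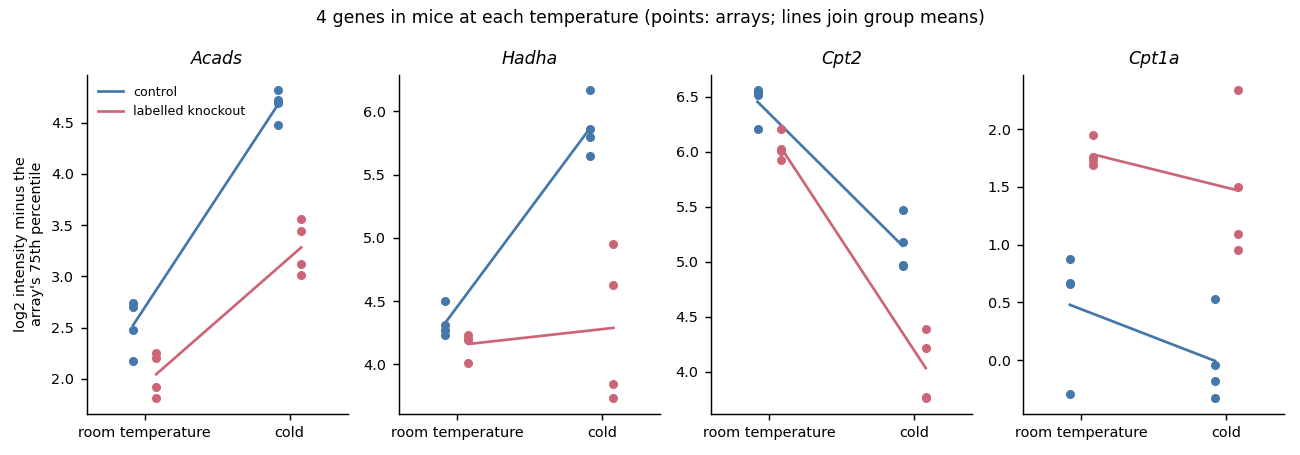
Scaled log2 signal (vertical axis, own scale for each gene) of Acads, Hadha, Cpt2 and Cpt1a in mice at room temperature and in the cold (horizontal axis), with points for arrays and lines joining group means of controls (blue) and arrays labelled knockout (red). The control line climbs more steeply than the other for Acads and Hadha. The Cpt2 panel shows its first probe, whose direction the second did not share.

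Over the 32 arrays, centred within each experiment, 9 of the 10 genes tracked the mean of the others, from Pearson r = 0.693 for Acadl to 0.942 for Acaa2. Cpt1a ran against it at r = −0.44. Cpt2 and Acadm lack a value on 1 array each, and the centring then dropped that array's whole experiment. Their r is over 24 arrays, without the Gyk experiment for Cpt2 and without the culture Pparg experiment for Acadm. These arrays share slides and group differences, so the values are descriptions. Among 9448 genes outside the set, those with the pattern most like the mean of the 10 were Acsl1 (r = 0.966), Plin5 (0.958), Lurap1 (0.948), Prdx3 (0.94) and Hadhb (0.939).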

How the data were processed

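RNA of 32 samples was hybridised to one-colour Agilent arrays, 1 per sample. Per the file headers, the deposited intensity of each spot was background-subtracted and detrended within the array by Feature Extraction 10.7.3.1, on a linear scale and not normalized between arrays. The array grid is of build mm9. Names came from a RefSeq table of GRCm38.p6, which named 27242 of 39429 probes, and the promoter sequences are RefSeq's on that build. Intensities were log2-transformed and each array's 75th percentile was subtracted after leaving out 1377 control spots and 101 to 247 outlying spots per array. Spots of a probe were averaged, and a gene's brightest probe over all 32 arrays was used. A probe was tested if its well-above-background flag was set on 4 or more of the fitted arrays. Outlying spots removed Cpt2 on Gyk control array 1 and Acadm on culture Pparg control array 1, so those groups have 3 values there.

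The model fits used limma 3.58.1 (R 4.3.3, data.table version 1.17.8). Its 2-sided p-values were adjusted by Benjamini-Hochberg across every gene of a fit, and 0.05 was the threshold. The knockdown and knockout fits held 8 arrays, and the fits of temperature and of differences held 16. The fit was tested on simulated data. Alternatives were normexp with an offset of 50 (on median spot signals), quantile normalization, the array median, no filter, slide and replicate blocks, each array left out, and, added after seeing the data, leaving out dim or muscle-rich arrays and every probe as a feature. Each experiment took 1 scan day and 2 slides, each with both groups.

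The 10 genes, the pathway and marker lists and the tests were chosen with earlier results of these data known. Every one of the 10 genes is named, and of the lists counts called in each direction and genes among the largest changes measured above background in both groups. Some results of the ketone and pyruvate list are not reported here. A summed level is the log2 of the summed scaled signals of a list. Same-numbered arrays deviated together in culture Pparg (r = 0.727 to 0.798) and in cold mice (0.117 to 0.486), past the limit of 0.1, where number and slide cannot be told apart. They did not all do so in the Gyk experiment (0.00852 to 0.125) or at room temperature (−0.204 to 0.0774).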

Additional observations from a re-analysis of the deposited data

Results flagged for a closer look

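In 4 of 78 groups of 4 arrays, 1 array stood apart from the other 3 by a gap that chance gives in about 1 in 20 groups. Cpt2 read 6.21 on room temperature control array 2, where the others lay between 6.51 and 6.56. Hadh read 7.69 on room temperature control array 1, where the others lay between 7.45 and 7.48. Acadm read 8.48 on cold control array 4 against 8.74 to 8.80, and Acads read 3.24 on culture Pparg control array 3 against 2.88 to 2.92.

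The genotype difference was tested between temperatures, and it differed for Hadha (−1.41) and Acads (−0.92), as described above.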

How the results depend on the processing

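Over 1546 combinations of a gene, a comparison and an alternative setting, 1429 stayed on the same side of the threshold. Of the rest, 80 lost a call, 36 gained one and 1 reversed direction with a call. The reversal was Acaa2 at room temperature under quantile normalization (0.19 against −0.17). A change of sign between uncalled estimates counts among the 1429, as for Hadh in the Gyk knockdown (estimates from −0.23 to 0.4). Of the 10 genes, the Gyk knockdown called 1 under normexp, quantile normalization or no filter (2.05%, 8.95% and 2.17% of all genes called). It called 0 with the replicate block (0.908%), 4 without knockdown arrays 3 and 4 (10.9%), and 0 to 2 with 1 array left out (2.4% to 11.1%). The room temperature comparison of genotypes called 4 with the array median or the replicate block, near the share of all genes called there (42.5% and 38.4%). It called 6 to 8 with 1 array left out (38.3% to 44.4% of all genes). The difference of genotype effects between temperatures called 5 under normexp, where 403 of all genes were called lower and 197 higher. It called 6 with the array median, where 1428 were called lower and 477 higher. Its main fit called 2, against 1013 lower and 862 higher, 13.3% of all genes. It called 6 with the slide block, 1 with the replicate block, 0 without muscle arrays, and 2 to 6 with 1 array left out. For those settings the share of all genes called is not set beside the counts. The Pparg knockdown called 10, Cpt1a included, with the slide block (59.5% of all genes called) and with the replicate block (58.1%). The counts with 1 array left out were 9 for the Pparg knockdown (29.1% to 31.8% of all genes called) and 9 to 10 for the cold genotypes (22.3% to 32.2%). For cold they were 8 to 9 in control mice and 8 on arrays labelled knockout (main fits 66.7% and 65.6% of all genes). For the difference between knockdowns they were 3 to 5 (main fit 12.8%). The within-array Cpt1b minus Cpt1a shift was −1.37, −2.27 and −2.42 in the Pparg knockdown, at room temperature and in the cold with the replicate block, with an adjusted exact permutation p of 0.167, and 4 pairs cannot reach the threshold. Without muscle arrays it was −2.30 at room temperature (adjusted exact permutation p = 0.0571) and −2.51 in the cold (0.133). Each came from the lowest unadjusted p that the arrays left allow. With 1 array left out it was −1.47 to −1.32 in the Pparg knockdown, −1.04 to −0.29 in the Gyk knockdown, −2.46 to −1.98 at room temperature and −2.57 to −2.22 in the cold. Without Gyk knockdown replicate 3 the Gyk shift was −1.04. The share of all called genes that were lower moved with the array median from 48.8% to 66.4% in the Pparg knockdown, from 47.9% to 64.1% in the Gyk knockdown, from 56.2% to 43.1% at room temperature, from 37.6% to 23.4% for cold in control mice and from 54% to 75% for the difference of genotype effects. The causes were not tested, other than that leaving out arrays leaves fewer samples.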
